A study of Mus musculus with 12 samples.

Results

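The transcript levels of 39 genes of DNA replication were followed in mouse cartilage progenitor pellets as their medium was switched from chondrogenic to osteogenic. They are a list of symbols covering origin licensing, the replication fork and the supply of nucleotides for S phase. All 39 were among the 28244 genes listed, and all 39 passed the filter on low values that left 17674 genes for testing. RNA was sequenced from 12 libraries, with 3 replicates for every time point (D7, D8, D10, D28). The labels describe murine mesenchymal progenitors of C57/BL6 mice, freed with collagenase from the ends of the long bones of pups aged 5 or 6 days and kept for a day on plastic before they were spun into pellets. Every pellet had 7 days in chondrogenic medium, so D7 is the end of cartilage priming, and D8, D10 and D28 had then spent 1, 3 and 21 days in osteogenic medium. No pellet kept in chondrogenic medium past D7 was among the libraries, so time in culture and the change of medium cannot be told apart. Nothing in the labels says whether the replicates came from separate cell isolations, so the p-values measure the spread between these libraries, which may be technical.

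Replication starts at origins that are first licensed. The origin recognition complex, with Orc1 and Orc6 among its subunits, recruits Cdc6 and Cdt1, and these load the ring-shaped helicase built from Mcm2 to Mcm7. Mcm10, Cdc45 and the GINS proteins turn the loaded helicase into an active one. Polymerase alpha with primase then makes primers, polymerases delta and epsilon extend them, and the sliding clamp Pcna, opened by the clamp loader Rfc1 to Rfc5, holds the polymerases on DNA while Fen1 and Lig1 finish the lagging strand. Transcription of many of these genes is switched on at the entry into S phase by E2F factors, which the retinoblastoma family of pocket proteins otherwise hold in check, and the genes of mitosis follow later in the cycle under other regulators. In the growth plate, cycling chondrocytes of the columnar zone leave the cycle as they become hypertrophic.

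Promoter windows from 250 bases before to 50 bases after the annotated start were on hand for 31 of the 39 genes (RefSeq, GRCm38.p6). The stretches of the 5 genes below are shown because they stand for the licensing and helicase genes that were higher at D8 than at D7, as described further on. Each runs from 170 to 20 bases before the start, 5′ to 3′ on the strand of its gene, and the capitals mark E2F letters (TTTCCCGC, TTTGGCGC, TTTCGCGC or TTTGCCGC on either strand) and CCAAT on either strand.
Orc1 promoter, chr4:108579284-108579434, plus strand: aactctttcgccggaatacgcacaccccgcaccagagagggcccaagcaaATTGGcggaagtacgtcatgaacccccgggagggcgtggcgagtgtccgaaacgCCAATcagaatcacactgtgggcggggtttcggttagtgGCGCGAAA
Cdc6 promoter, chr11:98907981-98908131, plus strand: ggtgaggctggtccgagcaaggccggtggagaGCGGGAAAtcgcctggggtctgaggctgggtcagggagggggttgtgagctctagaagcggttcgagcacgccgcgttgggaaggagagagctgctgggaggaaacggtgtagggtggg
Mcm5 promoter, chr8:75109339-75109489, plus strand: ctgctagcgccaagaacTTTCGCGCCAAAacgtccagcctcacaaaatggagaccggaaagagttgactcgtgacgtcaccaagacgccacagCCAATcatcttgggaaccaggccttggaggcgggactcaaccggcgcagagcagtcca
Mcm6 promoter, chr1:128359725-128359875, minus strand: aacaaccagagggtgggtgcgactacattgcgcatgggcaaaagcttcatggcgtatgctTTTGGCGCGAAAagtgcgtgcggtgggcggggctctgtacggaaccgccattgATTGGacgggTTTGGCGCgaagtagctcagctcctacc
Mcm10 promoter, chr2:5012811-5012961, minus strand: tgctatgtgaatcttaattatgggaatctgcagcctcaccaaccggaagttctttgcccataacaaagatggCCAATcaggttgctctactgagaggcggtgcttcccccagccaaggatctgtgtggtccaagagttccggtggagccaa
In GENCODE M21, 12 bases of the Orc1 stretch lie in an exon of Orc1. The RefSeq start used for Cdc6 lies inside the GENCODE gene, which starts at 98907801, so its stretch begins at the last base of an annotated exon and otherwise lies in an intron of the longer transcript. The Orc1 stretch holds E2F letters that begin 27 bases before the start, and those of Cdc6 begin 138 bases before it. In the Mcm5 stretch a pair of overlapping matches begins 153 and 149 bases before the start. Mcm6 holds an overlapping pair at 110 and 106 bases and a further match at 47 bases. The Mcm10 window held no E2F letters in the forms searched.

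E2F letters were found in the windows of 12 of the 31 genes (38.7%), against 704 of the 27025 genes with a window in the table (2.61%). The 12 were Cdc6, Cdt1, Gins3, Lig1, Mcm3, Mcm5, Mcm6, Mcm7, Orc1, Pola1, Pold1 and Rfc3. Of the 15 genes with a window that were higher at D8 than at D7 with an adjusted p under 0.05, 8 held the letters (53.3%), as did 4 of the 16 others (25%). CCAAT was present in 18 of the 31 (58.1%), against 41.1% of all genes. The letters TTTGAA or TTCGAA, which belong to the cell cycle homology region known from mitotic promoters, were present in 6 of the 31 (19.4%), against 21.7% of all genes. These counts describe letters in a fixed window and no test was made of them.

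Levels are given as deposited, on a log2 scale of an equalized read count plus 1, so a difference of 1 is a doubling. Relative depth, judged from low levels, was lowest in replicate 1 of D10 (0.730) and highest in a D28 library (1.31). The number of genes at 0 ran from 11055 to 12383 in a library. In no library did 3 reads stand above 2.87 on this scale, and such read numbers speak to counting error only, because no molecular identifiers were used to tell molecules from copies. Of the replication genes, Fen1 (4 to 30 reads per library) and Orc1 (5 to 54 reads) were the closest to that floor. The libraries carried the cartilage markers Col2a1 (19.87 to 20.92) and Acan (16.08 to 18.61) at every time point, but the summed level of the cartilage markers was lowest at D10. In units of 1000, the unlogged sum of 10 chondrocyte markers lay between 2651 and 2674 at D7, 2504 and 2898 at D8, 1251 and 1315 at D10 and 2483 and 2565 at D28. That sum was mostly Col2a1, which stood at 20.92, the highest value of any library, in the 9 libraries of D7, D8 and D28 and at 19.87 in those of D10. Equalization gives every library the same highest value. Of the 10, 7 fell from D7 to D10 (10.4% of all genes tested), among them Matn3 by 4.37 and Cnmd by 3.09 on the log2 scale. From D10 to D28 6 rose and 1 fell (Col11a1), where 13.8% of all genes rose and 13.7% fell. The rule for rises and falls of markers is given below, with the shares of all genes that passed it in each comparison. In the same units, the sum of 4 markers of hypertrophic chondrocytes lay between 182 and 223 at D7, 166 and 273 at D8, 211 and 341 at D10 and 57.4 and 99.2 at D28, and 2 of the 4 fell from D7 to D8. That sum was mostly Col10a1 from D7 to D10 and mostly Mmp13 in replicates 2 and 3 of D28. Col10a1 fell by 3.82 on the log2 scale from D10 to D28, whereas the other 3 rose, Panx3 by 3.70, Mmp13 by 2.45 and Ihh from 0, 2.84 and 2.44 to 9.27, 7.68 and 6.71. Also in units of 1000, the sum of 7 osteoblast markers lay between 364 and 576 at D7, 158 and 340 at D8, 109 and 198 at D10 and 178 and 198 at D28, with 2 that rose and 3 that fell from D7 to D8, and it was mostly Col1a1 in every library.

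Markers of other cell types moved with time as well. The unlogged sum of 6 endothelial markers, given here without a divisor like those that follow, lay between 52 and 76.3 at D7, between 256.5 and 419 at D8, between 399 and 515 at D10 and between 21.9 and 53.7 at D28. From D7 to D8 3 of the 6 rose (Vwf by 2.83, Pecam1 by 2.27 and Kdr from 0 to 1.37 at D7 to 2.92 to 3.58 at D8), and Vwf fell by 5.29 from D10 to D28. The D7 values of Kdr lay under the level of 3 reads in those libraries. The sums of D10 were mostly Vwf, and the means of Pecam1, Cdh5, Tek and Emcn were lower at D10 than at D8, with 1 of the 6 markers past the threshold in that comparison (Cdh5, which fell by 2.23). The sum of 9 markers of macrophages and osteoclasts lay between 5134 and 6119.8 at D7, between 7280.1 and 9955 at D8, between 12919 and 14034 at D10 and between 5938 and 8492 at D28. Of these 9, 1 rose from D7 to D8 (Cd14 by 1.33), 3 rose from D7 to D10 (Cd68, Cd14 and Ctsk) and 2 fell (Adgre1 and Fcgr1), with Fcgr1 at 0 in the 3 libraries of D10. At D7 Fcgr1 stood at 1.54, 0.74 and 3.26, where 3 reads stood at 2.03, 1.97 and 2.46, so its fall rests on very few reads. That sum was mostly Ctsk, which fell by 1.12 from D10 to D28, as Cd68 did by 1.09, whereas Csf1r, Adgre1 and Tyrobp rose by 2.64, 3.07 and 1.49. Replicate 2 of D28 held the highest values of Csf1r (7.92, the others at 4.72 and 5.13) and Adgre1 (7.49, the others at 4.75 and 5.36). The summed unlogged level of 6 skeletal muscle markers lay between 2509.8 and 3149 at D7, between 708 and 1217 at D8, between 229 and 331 at D10 and between 65.8 and 128 at D28, and all 6 fell from D7 to D28. The sum of 5 adipocyte markers lay between 3804 and 4482 at D7, between 1661 and 2291 at D8, between 838 and 1316 at D10 and between 39974 and 54600.1 at D28, where all 5 rose against D10. Myh3 stood at 0 in 2 of the 3 libraries of D28 and Lep at 0 in the 3 libraries of D10. The sum of 4 erythroid markers was at most 9.25 in any library. The part of these cell types in the results below was not tested. In bulk RNA of this kind, fewer cycling cells and less RNA per cell cannot be told apart.

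A single day in osteogenic medium went with higher levels of replication genes. A gene was said to have risen or fallen at an absolute log2 difference of at least 1 with an adjusted p under 0.05 (limma, adjusted by Benjamini-Hochberg over all genes tested), and genes with only the adjusted p under 0.05 were counted apart. From D7 to D8, 5 of the 39 rose and 0 fell, where 3.23% of all genes tested rose and 3.81% fell. With the adjusted p alone, 17 of the 39 were higher at D8 and 0 lower, against 11.9% and 9.09% of all genes. The median difference was 0.47 for the 39 genes and 0.03 for all genes tested. The genes that rose were Orc1, Cdc6, Chaf1b, Mcm10 and Mcm5, and 34 of the 39 differences were positive.

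From D8 to D10 the levels of many of these genes came down again. Of the 39, 8 fell (Cdc6, Mcm5, Mcm3, Mcm6, Pole, Mcm10, Tk1 and Chaf1a) and 1 rose (Cdt1), where 5.58% of all genes fell and 4.08% rose. With the adjusted p alone, 24 were lower and 1 higher, against 15.0% and 13.9% of all genes, and the median difference was -0.69 (0 for all genes). In the comparison of D10 with D7, 1 of the 39 rose (Cdt1) and 0 fell, where 8.50% of all genes rose and 10.4% fell. The adjusted p alone gave 4 higher and 13 lower at D10 than at D7 (21.8% and 19.4% of all genes), with a median of -0.21 (0.05 for all genes).

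By D28 the levels were the lowest of the series for 31 of the 39 genes (79.5%), and for 34.6% of all genes tested. Between D10 and D28, 12 fell and 0 rose, where 13.7% of all genes fell and 13.8% rose. With the adjusted p alone 25 were lower and 2 higher (29.8% and 22.6% of all genes). The median was -0.67 (-0.10 for all genes). Between D7 and D28, 15 fell and 0 rose, against 8.66% and 8.63% of all genes, and with the adjusted p alone 26 were lower and 1 higher, against 19.7% and 17.6%. The median of that comparison was -0.61 (-0.03 for all genes). These 5 comparisons share libraries and are not independent of each other.

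**Figure D1:**
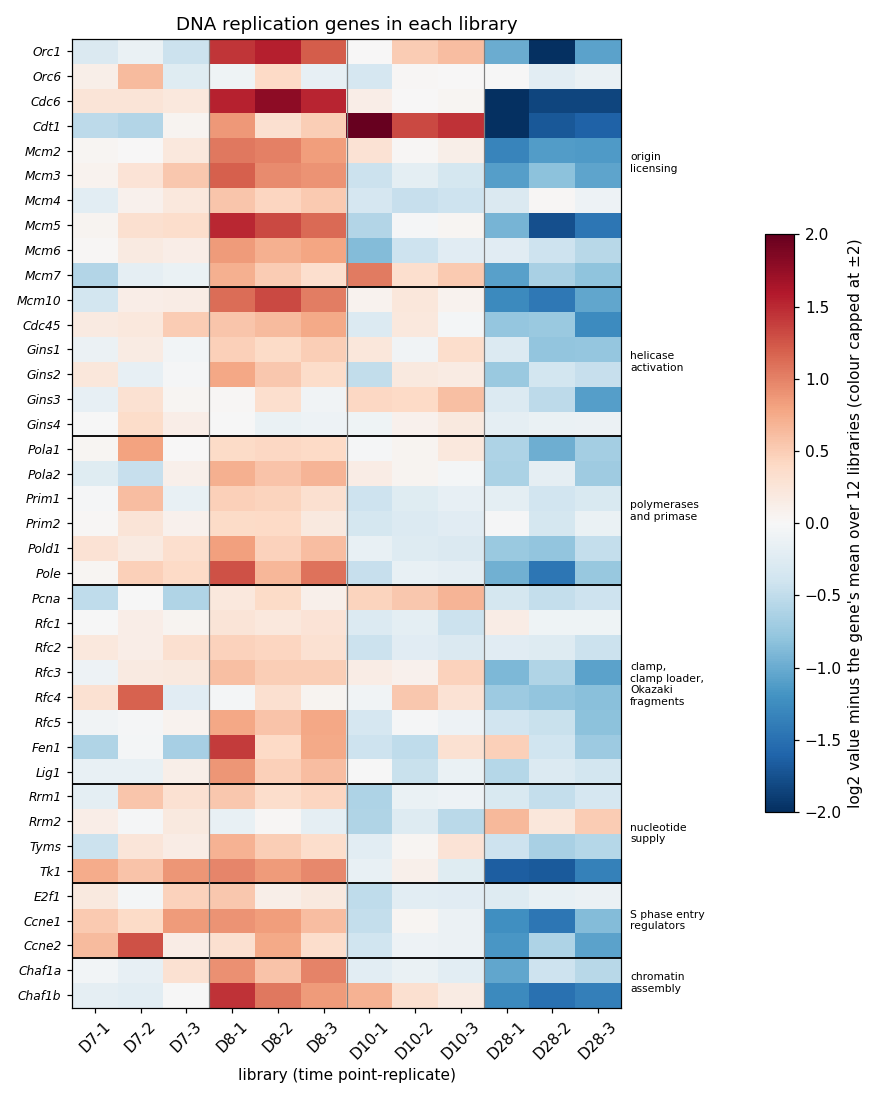
Log2 value of each of the 39 genes (rows, grouped by role) in each of the 12 libraries (columns), as the difference from the mean of the gene over all libraries, with red above and blue below that mean. The D8 columns are the reddest for most rows, and the D28 columns are blue except for Rrm2, 1 library of Fen1 and genes near 0 such as Orc6, Mcm4 and Rfc1.

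The highest of the 4 means was at D8 for 30 of the 39 genes, at D7 for 4, at D10 for 4 and at D28 for 1. Among all genes tested the highest mean was at D8 for 18.5%, at D7 for 19.9%, at D10 for 33.5% and at D28 for 28.1%. A transient pattern, higher at D8 than at D7 and then lower at D10 than at D8 with an adjusted p under 0.05 for both, was met by 13 of the 39 genes (33.3%) and by 397 of all genes tested (2.25%). The 13 were Cdc6, Mcm2, Mcm3, Mcm4, Mcm5, Mcm6, Mcm10, Pola2, Pole, Rfc5, Lig1, Chaf1a and Chaf1b. Orc1, Mcm7 and Pcna were higher at D8 with no adjusted p under 0.05 for D10 against D8, and Cdt1 was higher again at D10. The difference of D10 against D8 was -1.02 for Orc1 (adjusted p = 0.068), but 0.12 for Mcm7 and 0.33 for Pcna. The remaining genes that were lower at D10 than at D8, 11 in number, had no adjusted p under 0.05 between D7 and D8. They were Cdc45, Prim1, Prim2, Pold1, Rfc1, Rfc2, Rrm1, Rrm2, Tk1, E2f1 and Ccne1. No adjusted p under 0.05 was found in any of the 5 comparisons for Orc6, Gins2, Gins4 and Fen1.

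**Figure D2:**
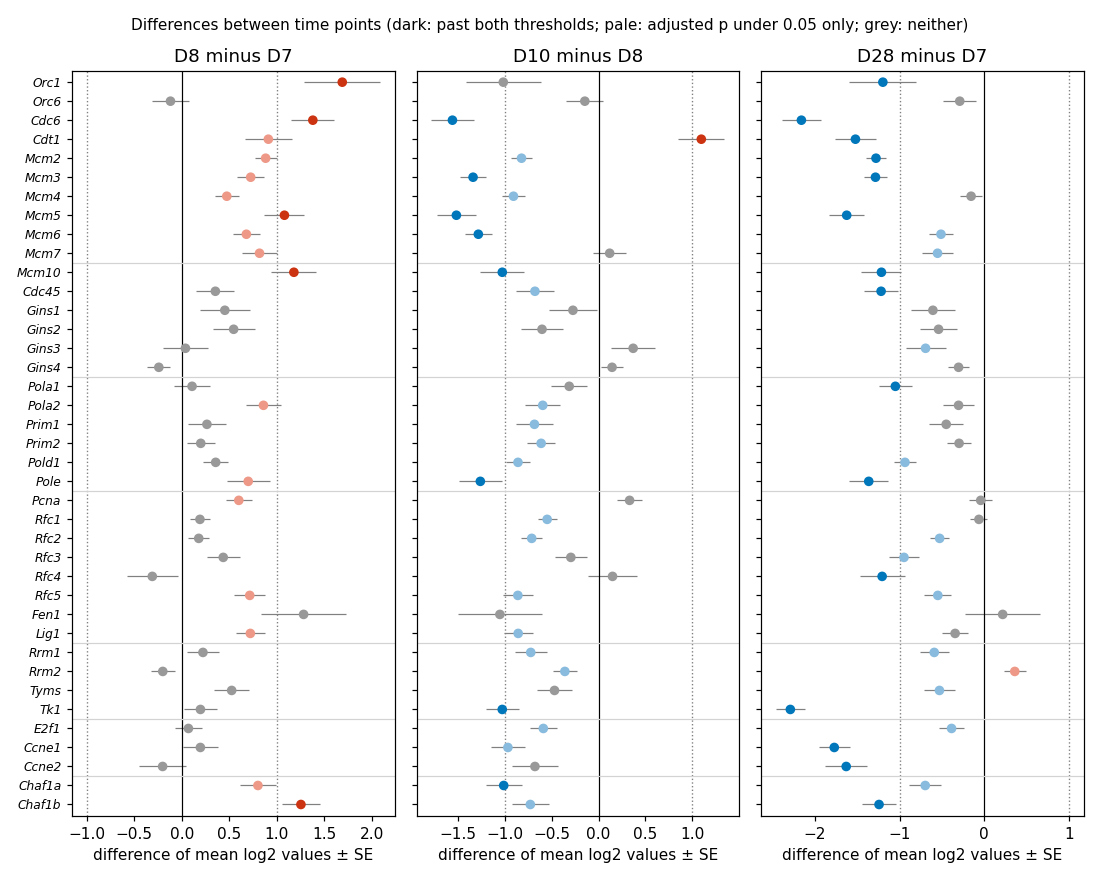
Difference of the mean log2 values with its standard error (horizontal axis) for each of the 39 genes (rows, in the order of their roles) for D8 minus D7, D10 minus D8 and D28 minus D7. Dark points are past an absolute difference of 1 (dotted lines) and an adjusted p of 0.05, pale points are past the adjusted p only and grey points past neither. D8 minus D7 has 5 dark points, all to the right, and D28 minus D7 has 15, all to the left.

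In origin licensing, 9 of the 10 genes were higher at D8 than at D7 with an adjusted p under 0.05, and 3 of them rose (Orc1, Cdc6 and Mcm5). From D7 to D28, 6 of the 10 fell. For this and the other role groups, the shares of all genes tested at D8 against D7 were 11.9% higher with the adjusted p alone and 3.23% that rose. From D7 to D28, 8.66% of all genes fell. Cdc6, the loading factor that is brought to origins by the origin recognition complex, lies on chromosome 11 of GRCm38 (98907801 to 98923940, plus strand). Its log2 values were 6.09, 6.10 and 6.04 at D7, 7.38, 7.62 and 7.36 at D8, 5.97, 5.85 and 5.87 at D10 and 3.75, 4.00 and 4.00 at D28. Every D8 library lay above every other library, every D28 library lay below, and the D10 values lay just under those of D7. The rise at D8 was 2.60-fold (log2 difference 1.38 ± 0.23 SE, adjusted p = 0.00053), the fall from D8 to D10 was 2.95-fold (adjusted p = 0.00016) and the fall from D10 to D28 was 3.93-fold (adjusted p = 2.8e-06). D10 and D7 did not differ beyond the error (log2 difference -0.18, 95% interval -0.67 to 0.30). In the D28 libraries Cdc6 rested on 20 to 24 reads.

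Orc1, the large subunit of the origin recognition complex (chromosome 4, 108579423 to 108614833), had the largest rise at D8 but few reads. Its values were 4.14, 4.30 and 4.00 at D7, 5.87, 5.99 and 5.64 at D8, 4.45, 4.95 and 5.05 at D10 and 3.45, 2.03 and 3.37 at D28. The D8 libraries were above all others, and replicate 2 of D28, at 5 reads, was the lowest. The rise at D8 was 3.22-fold (1.69 ± 0.40, adjusted p = 0.0069). The fall from D10 to D28 was 3.65-fold (adjusted p = 0.00097), whereas D28 against D7 (adjusted p = 0.027) gave -0.74 with an adjusted p of 0.13 without replicate 2 of D28. Orc6, a smaller subunit of the same complex, moved least in this group. Its values were 9.13, 9.65 and 8.78 at D7, 8.93, 9.41 and 8.86 at D8, 8.68, 9.04 and 9.03 at D10 and 9.01, 8.80 and 8.89 at D28, and the time points overlapped. Its largest difference, D28 against D7, was -0.29 (95% interval -0.71 to 0.13).

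Cdt1, the partner of Cdc6 in helicase loading (chromosome 8, 122568015 to 122573554), had its highest level at D10. Its values were 8.17, 8.12 and 8.76 at D7, 9.56, 9.02 and 9.20 at D8, 10.91, 10.02 and 10.15 at D10 and 6.40, 7.01 and 7.08 at D28. No time points overlapped, and the order from low to high was D28, D7, D8 and D10. At D8 it was higher than at D7 by 0.91 (adjusted p = 0.016), under the fold threshold, and from D8 to D10 it rose by a further 1.10 (adjusted p = 0.0039). Replicate 1 of D10, the library of lowest depth, held the highest value, and without it the difference between D10 and D8 was 0.82 (adjusted p = 0.021). Without replicate 2 of D8 it was 0.97 (adjusted p = 0.021). Between D7 and D10 the rise was 4.02-fold (2.01 ± 0.25, adjusted p = 1.1e-05), and between D10 and D28 Cdt1 fell 11.5-fold (adjusted p = 1.4e-08), the largest change of the 39 genes in any of the 5 comparisons.

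**Figure D3:**
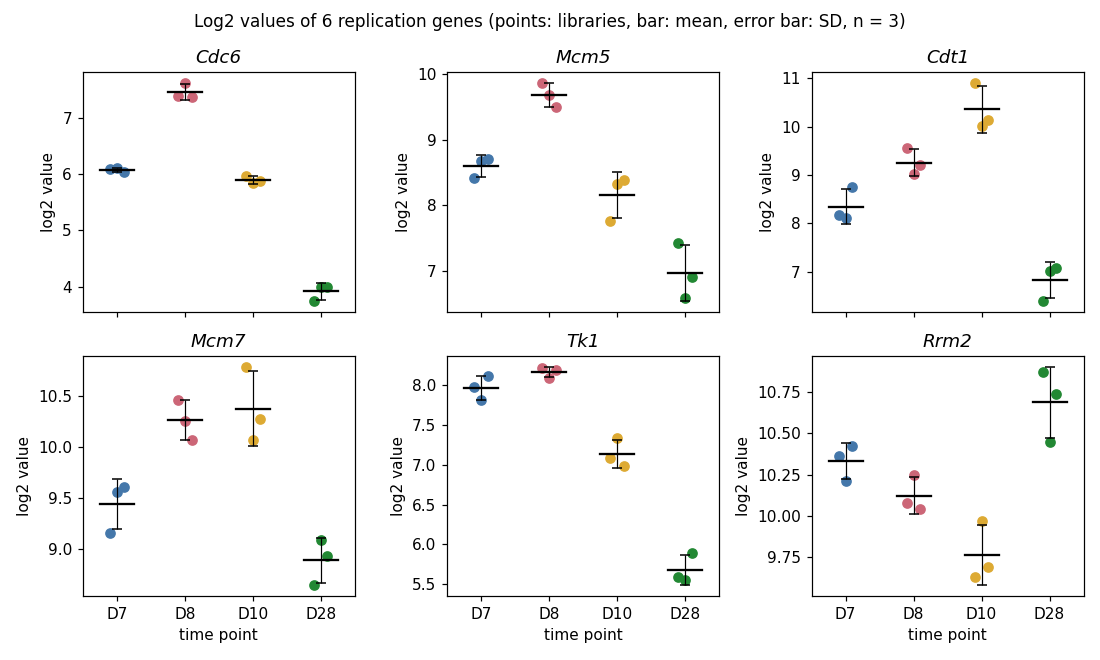
Log2 values (vertical axes, each with its own range) of Cdc6, Mcm5, Cdt1, Mcm7, Tk1 and Rrm2 at the 4 time points, with 1 point per library, the mean as a bar and the SD of 3 libraries as the error bar. Cdc6 and Mcm5 peak at D8, Cdt1 at D10, Tk1 steps down after D8, and Rrm2 is highest at D28.

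The subunits of the MCM ring were all higher at D8 than at D7 with an adjusted p under 0.05. The differences between D8 and D7 ran from 0.47 for Mcm4 (adjusted p = 0.015) to 1.08 for Mcm5 (adjusted p = 0.0019). Mcm5 was past the fold threshold, but its difference was 0.98 without replicate 1 of D7 and 0.99 without replicate 1 of D8. From D8 to D10 Mcm5 fell 2.87-fold, Mcm3 2.53-fold and Mcm6 2.44-fold, and Mcm2 and Mcm4 were lower by 0.82 and 0.91 on the log2 scale, under the fold threshold. Mcm7 was the subunit with no lower level at D10. Its values were 9.16, 9.56 and 9.61 at D7, 10.46, 10.25 and 10.07 at D8, 10.78, 10.07 and 10.27 at D10 and 8.65, 9.09 and 8.93 at D28. The D8 and D10 libraries overlapped and lay above all others, and D10 minus D8 was 0.12 (95% interval -0.26 to 0.50). Against D7, Mcm7 was higher at D10 by 0.93 (adjusted p = 0.00061), whereas Mcm3, Mcm4 and Mcm6 were lower by 0.62, 0.44 and 0.61 (adjusted p = 0.0024, 0.012 and 0.0028).

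Between D10 and D28 Mcm2, Mcm5 and Mcm7 fell, by 1.34, 1.18 and 1.49 on the log2 scale, and Mcm3 was lower by 0.67 (adjusted p = 0.00092), under the fold threshold, while Mcm4 and Mcm6 showed differences of 0.28 (adjusted p = 0.076) and 0.10 (adjusted p = 0.60). For Mcm5 that difference was -0.99 without replicate 2 of D28. Against D7, the D28 level was lower past the fold threshold for Mcm2 (2.43-fold), Mcm3 (2.44-fold) and Mcm5 (3.08-fold). Mcm6 and Mcm7 were lower by 0.51 and 0.55 (adjusted p = 0.0099 and 0.024), under that threshold, and for Mcm4 the difference was -0.15 (95% interval -0.43 to 0.12). Unlogged levels were divided by transcript length and averaged over the libraries as log2 values. On that measure the highest of the 6 subunits at D8, Mcm6, was 3.19 times the lowest, Mcm4. Mcm6 was the highest at D7 and D28 as well, and Mcm7 at D10. The spread was 3.87-fold at D7, 5.32-fold at D10 and 8.42-fold at D28, and at these time points Mcm5 was the lowest. The length was that of the longest principal coding transcript in GENCODE M21, which leaves other isoforms out. The order of the time points by this spread depends on the lengths, and other lengths were not tried.

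**Figure D4:**
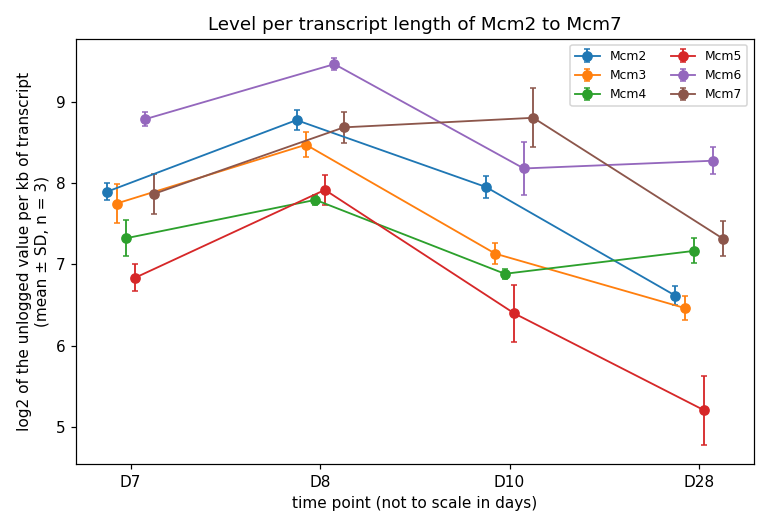
Log2 of the unlogged level per kilobase of transcript (vertical axis, mean and SD of 3 libraries) of Mcm2 to Mcm7 at the 4 time points. With the lengths used, the lines span 3.19-fold at D8 (Mcm4 to Mcm6) and 8.42-fold at D28 (Mcm5 to Mcm6), and Mcm7 is the subunit that does not drop from D8 to D10.

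Of the 6 genes of helicase activation, 1 rose at D8 (Mcm10), and 2 fell from D7 to D28 (Mcm10 and Cdc45). Mcm10, which is needed to start unwinding, had values of 5.69, 6.19 and 6.21 at D7, 7.17, 7.37 and 7.08 at D8, 6.12, 6.29 and 6.12 at D10 and 4.79, 4.62 and 5.02 at D28. D8 stood above and D28 below all other libraries, and D7 and D10 overlapped. It rose 2.26-fold from D7 to D8 (adjusted p = 0.0023), fell 2.04-fold to D10 (adjusted p = 0.0045) and a further 2.57-fold to D28 (adjusted p = 0.00017). The fall from D8 to D10 was 0.95 on the log2 scale without replicate 2 of D8. Cdc45, a partner of the ring in the active helicase, had values of 7.39, 7.41 and 7.72 at D7, 7.76, 7.84 and 7.97 at D8, 6.93, 7.42 and 7.17 at D10 and 6.44, 6.47 and 5.95 at D28. Its D8 libraries lay just above those of D7, a difference of 0.35 with an adjusted p of 0.24, and D28 was clear of the rest, 2.33-fold lower than D7 (adjusted p = 0.00017).

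The GINS genes, whose proteins complete that helicase, passed the tests in few comparisons. Gins4 stayed between 8.92 and 9.47 in all 12 libraries, with 9.09, 9.47 and 9.23 at D7, 9.09, 8.97 and 9.00 at D8, 9.02, 9.18 and 9.29 at D10 and 8.92, 8.97 and 8.98 at D28, and its D28 mean was lower than that of D7 by 0.30 (adjusted p = 0.062). Gins3 fell 2.14-fold from D10 to D28 (adjusted p = 0.0010), but not past the fold threshold without replicate 3 of D28 (-0.87). Gins1 was lower at D28 than at D10 by 0.78 (adjusted p = 0.019). For Gins2 the largest difference was -0.60 between D10 and D8 (adjusted p = 0.050), and 67.3% of its exon bases overlap exons of Gse1 on the opposite strand. The labels describe a pair of library kits, both stranded, without saying which library had which, and the strand setting of the counting is not stated, so reads of the 2 genes may not have been separated.

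Of the 6 polymerase and primase genes, 2 were higher at D8 than at D7 with an adjusted p under 0.05 (Pola2 and Pole), both under the fold threshold, and 2 fell from D7 to D28 (Pole and Pola1). Pole, the catalytic subunit of the leading strand polymerase, had values of 7.07, 7.52 and 7.44 at D7, 8.31, 7.70 and 8.12 at D8, 6.58, 6.89 and 6.86 at D10 and 6.07, 5.59 and 6.28 at D28. No time points overlapped. D8 was higher than D7 by 0.70 (adjusted p = 0.040), D10 was 2.40-fold lower than D8 (adjusted p = 0.00083) and D28 was 2.57-fold lower than D7 (adjusted p = 0.00021). Pold1, the catalytic subunit of polymerase delta, stood at 9.13, 9.02 and 9.17 at D7, 9.65, 9.29 and 9.45 at D8, 8.68, 8.58 and 8.55 at D10 and 8.09, 8.05 and 8.36 at D28. These values stepped down after D8 without overlap, by 0.86 to D10 (adjusted p = 0.00021), and D28 was lower than D7 by 0.94 (adjusted p = 3.6e-05), under the fold threshold.

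Prim2, the large primase subunit, had the smallest range in this group, with values of 7.83, 8.06 and 7.89 at D7, 8.18, 8.20 and 8.00 at D8, 7.45, 7.52 and 7.57 at D10 and 7.77, 7.45 and 7.67 at D28. It was lower at D10 than at D8 by 0.61 (adjusted p = 0.0056), and its D10 and D28 libraries overlapped. Pola1, the catalytic subunit of polymerase alpha, fell 2.07-fold from D7 to D28 (adjusted p = 0.00048; -0.99 on the log2 scale with median of ratios scaling), and its partner Pola2 was higher at D8 than at D7 by 0.86 (adjusted p = 0.0038). Replicate 2 of D7 held the highest Pola1 value (8.85), and without that library the difference between D28 and D7 was -0.79. Prim1, the catalytic primase subunit, was lower at D10 than at D8 by 0.69 (adjusted p = 0.019).

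Of the 8 genes of the clamp, its loader and Okazaki fragment processing, 3 were higher at D8 than at D7 with an adjusted p under 0.05 (Pcna, Rfc5 and Lig1). Past the fold threshold 0 of the 8 rose, where 3.23% of all genes did. From D7 to D28 1 of the 8 fell (Rfc4), where 8.66% of all genes did. Pcna, the sliding clamp, was higher at D8 than at D7 by 0.60 (adjusted p = 0.0056) and higher at D10 than at D7 by 0.93 (adjusted p = 6.2e-05), then lower at D28 than at D10 by 0.97 (adjusted p = 2.3e-05). Its libraries at D10, between 11.31 and 11.55, lay above all others, and D28 and D7 did not differ beyond the error (-0.04, 95% interval -0.33 to 0.25). Rfc3, a small loader subunit, had values of 7.48, 7.77 and 7.78 at D7, 8.19, 8.07 and 8.08 at D8, 7.74, 7.67 and 8.04 at D10 and 6.69, 6.99 and 6.51 at D28. D28 was clear of the rest and 2.12-fold below D10 (adjusted p = 7.8e-05), a difference of -0.97 without replicate 3 of D10 and -0.98 without replicate 3 of D28.

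Rfc4 also fell, 2.31-fold from D7 to D28 (adjusted p = 0.0021) and 2.06-fold from D10 to D28 (adjusted p = 0.0037). The D7 libraries were 8.39, 9.27 and 7.85, and without replicate 2 the difference between D28 and D7 was -0.82. Without replicate 2 of D10 that between D28 and D10 was -0.90. Rfc1, the large loader subunit, kept the smallest range, with 10.19, 10.33 and 10.26 at D7, 10.46, 10.41 and 10.47 at D8, 9.92, 10.00 and 9.77 at D10 and 10.35, 10.12 and 10.12 at D28. D10 was lower than every other time point, by 0.55 against D8 (adjusted p = 0.00094), and D28 was higher than D10 by 0.30 (adjusted p = 0.021). Rfc2 and Rfc5 were lower at D10 than at D8 by 0.71 and 0.86 (adjusted p = 0.00024 and 0.0011).

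Lig1, the ligase that seals Okazaki fragments, was higher at D8 than at D7 by 0.72 (adjusted p = 0.0037) and lower at D10 than at D8 by 0.86 (adjusted p = 0.00080). Fen1, the flap nuclease that acts before it, was read at very low levels. Its values were 3.07, 3.63 and 3.01 at D7, 5.07, 4.07 and 4.43 at D8, 3.26, 3.17 and 3.97 at D10 and 4.15, 3.27 and 2.95 at D28. The D8 libraries, at 13 to 30 reads, were above those of D7, at 5 to 12 reads, with a log2 difference of 1.28 ± 0.45 and an adjusted p of 0.054. Exons of Tmem258 and Gm10143 on the opposite strand cover 84.2% of the exon bases of Fen1 in GENCODE M21. The part of that overlap in the low values was not tested.

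None of the 4 nucleotide supply genes had an adjusted p under 0.05 between D7 and D8 (differences of -0.20 to 0.52), and 1 of them, Tk1, fell from D7 to D28. Tk1, the S phase thymidine kinase (chromosome 11, 117815526 to 117826092, minus strand), had values of 7.98, 7.81 and 8.11 at D7, 8.21, 8.09 and 8.19 at D8, 7.08, 7.33 and 6.99 at D10 and 5.59, 5.55 and 5.89 at D28. D7 and D8 overlapped at the top, D10 lay below them and D28 lay lowest. The fall was 2.04-fold from D8 to D10 (adjusted p = 0.00051), 0.96 on the log2 scale without replicate 3 of D10, and 4.89-fold from D7 to D28 (adjusted p = 8.1e-08), the largest of the 39 in that comparison. Tyms, which makes thymidylate, had values of 7.62, 8.29 and 8.19 at D7, 8.74, 8.53 and 8.40 at D8, 7.84, 8.09 and 8.32 at D10 and 7.63, 7.39 and 7.48 at D28. D8 stood above the other time points, though with an adjusted p of 0.059 against D7, and D28 was lower than D10 by 0.58 (adjusted p = 0.016).

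The subunits of ribonucleotide reductase, the enzyme that makes deoxyribonucleotides, parted at D28. Rrm1, its large subunit, had values of 9.60, 10.36 and 10.10 at D7, 10.34, 10.15 and 10.23 at D8, 9.18, 9.67 and 9.70 at D10 and 9.49, 9.33 and 9.47 at D28. Those of Rrm2, the small subunit usually tied to S phase, were 10.36, 10.21 and 10.42 at D7, 10.08, 10.25 and 10.04 at D8, 9.63, 9.97 and 9.69 at D10 and 10.87, 10.45 and 10.74 at D28. D10 was lowest and D28 highest for Rrm2, with no overlap between D28 and any other time point. It was 1.90-fold higher at D28 than at D10 (0.92 ± 0.13, adjusted p = 1.8e-05) and 1.28-fold higher than at D7 (adjusted p = 0.036), both under the fold threshold, while Rrm1 was lower at D28 than at D7 by 0.59 (adjusted p = 0.013). With the libraries scaled by median of ratios, the difference of Rrm2 between D28 and D10 was 1.05, past the threshold.

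None of the 3 regulators of S phase entry had an adjusted p under 0.05 between D7 and D8, and 2 of them, both cyclin E genes, fell from D7 to D28. Ccne1, a cyclin E gene whose product activates Cdk2, had values of 8.78, 8.63 and 9.11 at D7, 9.15, 9.08 and 8.87 at D8, 7.77, 8.29 and 8.13 at D10 and 7.02, 6.80 and 7.38 at D28. D7 and D8 overlapped, and the difference between them was 0.19 (95% interval -0.20 to 0.59). It fell 3.41-fold from D7 to D28 (adjusted p = 2.1e-06). Ccne2, the other cyclin E gene, had values of 8.18, 8.82 and 7.70 at D7, 7.87, 8.31 and 7.90 at D8, 7.15, 7.45 and 7.43 at D10 and 6.39, 6.93 and 6.48 at D28, and it fell 3.10-fold from D7 to D28 (adjusted p = 8.8e-05). E2f1, an activating member of the E2F family, moved little by comparison. Its values were 9.81, 9.57 and 10.08 at D7, 10.15, 9.73 and 9.80 at D8, 9.11, 9.40 and 9.39 at D10 and 9.35, 9.46 and 9.50 at D28, so that D10 and D28 lay below D7 and D8. The difference was 0.07 from D7 to D8 (95% interval -0.24 to 0.38) and -0.59 from D8 to D10 (adjusted p = 0.0066).

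Chaf1a and Chaf1b encode subunits of the assembly factor that places histones on newly copied DNA. Chaf1b had values of 6.99, 6.96 and 7.17 at D7, 8.62, 8.23 and 8.02 at D8, 7.86, 7.49 and 7.33 at D10 and 5.89, 5.68 and 5.81 at D28. No time points overlapped, with D8 highest and D28 lowest. It rose 2.38-fold at D8 (1.25 ± 0.20, adjusted p = 0.00041) and fell 3.40-fold from D10 to D28 (adjusted p = 2.5e-06). Chaf1a had values of 7.66, 7.56 and 8.02 at D7, 8.64, 8.29 and 8.71 at D8, 7.50, 7.59 and 7.50 at D10 and 6.68, 7.30 and 7.17 at D28. D8 stood above all other libraries, by 0.80 against D7 (adjusted p = 0.0076). The fall from D8 to D10 was 2.02-fold (adjusted p = 0.0012), close to the threshold, and it lay between 0.93 and 1.00 on the log2 scale without any 1 of 4 libraries, replicates 1 and 3 of D8 and replicates 1 and 3 of D10. Exons of Ubxn6 on the opposite strand cover 52.5% of the exon bases of Chaf1a.

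Other genes of the same pathway were counted in the same way. Of 49 further replication genes, 3 rose and 0 fell from D7 to D8 (3.23% and 3.81% of all genes tested), with a median difference of 0.22. They were Dna2, a nuclease and helicase of Okazaki fragments (1.41, adjusted p = 0.023), Recql4, a helicase that acts in initiation (1.16, adjusted p = 0.0053), and Uhrf1, which carries DNA methylation through replication (1.05, adjusted p = 5.8e-05). With the adjusted p alone, 8 of the 49 were higher and 1 lower at D8 than at D7 (11.9% and 9.09% of all genes). From D7 to D28, 13 of the 49 fell and 0 rose (8.66% and 8.63% of all genes), led by Pclaf, a Pcna-binding factor (-3.04), Top2a, topoisomerase II alpha (-2.66), and Dtl, which directs degradation of Cdt1 on chromatin (-2.63). Of 23 further genes of nucleotide supply, 2 rose and 1 fell at D8 against D7 (3.23% and 3.81% of all genes), and with the adjusted p alone 14 were higher and 1 lower (11.9% and 9.09%). From D7 to D28, 1 rose and 2 fell (8.63% and 8.66%), and from D10 to D28 1 rose and 7 fell (13.8% and 13.7%). Shmt1, of folate metabolism, rose by 1.70 (adjusted p = 7.4e-05) and Dctd, a deoxycytidylate deaminase, by 1.04 (adjusted p = 0.0010).

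Samhd1, an enzyme that breaks down deoxyribonucleotides, had its highest level at D28. Its values were 11.50, 10.86 and 11.30 at D7, 10.12, 9.80 and 10.17 at D8, 8.70, 8.88 and 8.84 at D10 and 12.54, 12.46 and 12.26 at D28. No time points overlapped, with D10 lowest and D28 highest. It fell by 1.19 on the log2 scale from D7 to D8 (adjusted p = 5.9e-05) and rose by 3.61 from D10 to D28, while Dut, which clears dUTP, and Ctps, a CTP synthase, fell by 1.41 and 1.32 from D7 to D28.

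Of 20 E2F, pocket protein and related cell cycle genes, 0 rose and 0 fell from D7 to D8, where 4 were higher and 1 lower with the adjusted p alone (11.9% and 9.09% of all genes). From D7 to D28, 6 of the 20 fell and 0 rose (8.66% and 8.63% of all genes), led by E2f7, a repressor of the family (-3.26), Ccna2, the cyclin of S phase and of the entry into mitosis (-2.69), and Mybl2, an activator of later cell cycle genes (-2.34).

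Of 30 mitosis genes, 0 rose and 2 fell from D7 to D8 (Cenpf by 1.26 and Cenpa by 1.13 on the log2 scale, both centromere proteins; 3.81% of all genes fell), with 10 lower at an adjusted p under 0.05 (9.09% of all genes) and a median difference of -0.51, beside 0.47 for the 39 replication genes. From D7 to D28, 29 of the 30 fell (8.66% of all genes), with a median of -2.50, beside 15 of 39 and -0.61 for the replication genes. The largest of these falls were those of Hmmr, a spindle protein, Ndc80, of the kinetochore, and Bub1, a checkpoint kinase (-3.00, -2.94 and -2.93). In each library the median over the list of the difference from each gene's own mean was, for the mitosis genes, 0.83 to 0.94 at D7, 0.27 to 0.49 at D8, -0.04 to 0.31 at D10 and -1.71 to -1.16 at D28. For the replication genes it was -0.01 to 0.18 at D7, 0.49 to 0.71 at D8, -0.22 to 0.01 at D10 and -0.72 to -0.60 at D28. The highest libraries were thus those of D7 for the mitosis genes and those of D8 for the replication genes. The difference between the lists was not tested.

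**Figure D5:**
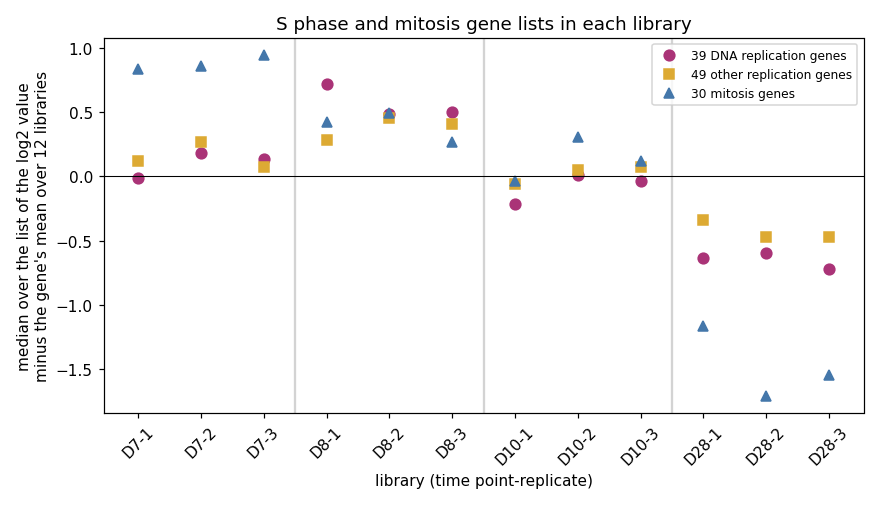
Median over each gene list of the log2 value minus the mean of the gene over the 12 libraries (vertical axis) in each library (horizontal axis), for the 39 DNA replication genes, 49 other replication genes and 30 mitosis genes. The replication medians peak in the D8 libraries (0.49 to 0.71), whereas the mitosis medians start at 0.83 to 0.94 at D7 and lie lower in every later library, with all 3 lists at their lowest at D28.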

How the data were processed

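The authors deposited 1 value per gene symbol for each of 12 RNA sequencing libraries, and these values were the start of the analysis. Per the labels and the study's methods, polyadenylated RNA was sequenced from stranded libraries, and reads were trimmed (Trimmomatic 0.36). HISAT2 served for alignment, Cufflinks for annotation and HTSeq for the gene counts, which were equalized between samples before 1 was added and the log2 taken. The deposited unit is therefore log2, and the library totals are not kept. The labels give GRCm38 as the genome build, which was used here for positions, while the supplementary methods name a human build. Equalization fixes the distribution of values in each library, so a change shared by most genes would not be seen.

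A gene was tested if 3 or more libraries reached a log2 value of 1. The fit was made in limma 3.58.1 (R 4.3.3) with a coefficient for each time point and the trend option (residual degrees of freedom 8, prior 7.23), and p-values are its moderated two-sided ones. Read numbers were taken from the rank of a value among all distinct ones in that library. The genes, role groups and further lists were chosen with earlier results of these data known. Values of every library are given for the 2 genes of each role with the largest range between time point means, the gene with the smallest, and genes that go against their group. Orc1, with the largest difference of D8 against D7, was added after its values were seen. From each further list the 3 genes with the largest change were named. The fit was tested on simulated data. Figures, motif searches and annotation overlaps (GENCODE M21, RefSeq promoters) were made in Python 3.11.15. Alternatives covered the filter, normalization, pseudocount, low values, variance prior, call rule, a replicate block and each library left out. No batch or date is given, so batches were not examined.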

Additional observations from a re-analysis of the deposited data

How the results depend on the processing

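Of 195 differences (39 genes in 5 comparisons), 0 changed direction as a call under any of 21 other settings. Of the 42 calls, 12 were lost in at least 1 setting, mostly differences close to the fold threshold, and 14 others were gained in at least 1 setting apart from the adjusted p alone. With the adjusted p alone, the counts of higher genes were 17 (D8 against D7), 4 (D10 against D7), 2 (D28 against D10) and 1 (D28 against D7), and those of lower genes were 24 (D10 against D8), 13 (D10 against D7), 25 (D28 against D10) and 26 (D28 against D7). With a pseudocount of 10, 5 genes fell from D8 to D10 in place of 8, since Mcm10, Tk1 and Chaf1a were then between -0.95 and -0.98, and Gins3 at D28 against D10 was just under the threshold. Scaling by median of ratios gave 1 gene higher at D28 than at D10 (Rrm2) and took Gins3, Rfc3 and Rfc4 (D28 against D10) and Pola1 (D28 against D7) under the threshold. For D28 against D10 it left 9 genes that fell in place of 12, with a median of -0.54 in place of -0.67. Leaving out each of the 12 libraries in turn, the counts of genes that rose ran from 1 to 2 for D10 against D7, from 0 to 1 for D10 against D8 and from 0 to 1 for D28 against D10, and the count that fell from D7 to D10 ran from 0 to 1. The count that rose from D7 to D8 ran from 4 to 7. Those that fell were as few as 7 from D8 to D10 and 12 from D7 to D28, and as many as 15 from D10 to D28. Calls lost without a library are given beside the gene in the report, apart from the further ones of Orc1 and Pola1 given last. Calls gained without a library were these. For D8 against D7 they were Cdt1 (replicate 3 of D7 or 2 of D8), Pola2 (replicate 3 of D7) and Fen1 (replicate 1 of D28). For D10 against D8 they were Ccne1 (replicate 3 of D8, or 2 or 3 of D10) and Orc1 (replicate 2 of D28). For D10 against D7 they were Pcna (replicate 2 of D7), Mcm7 (replicate 3 of D7 or 2 of D10) and Ccne2 (replicate 3 of D7). For D28 against D10 they were Cdc45 (replicate 1 of D10), Pcna (replicate 1 of D10 or of D28), Ccne1 (replicate 1 of D10 or 3 of D28) and Rrm2 (replicate 2 of D10 or of D28). For D28 against D7 they were Rfc3 (replicate 1 of D7 or 2 of D28) and Pold1 (replicate 3 of D28). Orc1 at D28 against D7 was also lost without replicate 1 or 2 of D7, with low values raised to the 3-read floor, with a pseudocount of 10 and under the study's own rule, and Pola1 without replicate 2 of D28. Low depth limits Orc1 and Fen1 most, and Fen1 at D8 against D7 passed the threshold (adjusted p = 0.045) with low values raised. Fen1 also passed there without the trend option (adjusted p = 0.041) and under the study's own rule. Orc1 at D10 against D8 passed as lower with low values raised (adjusted p = 0.0067) and under the study's own rule.

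No pairing of libraries by replicate number was seen, which does not tell whether same-numbered libraries shared a cell isolation. Of 18 same-numbered pairs, 0 had deviations from their time point means correlated above 0.1 (-0.06 to 0.07, other pairs -0.07 to 0.09), and 3 of 12 libraries correlated best with their own number. With the replicate block the counts were unchanged, with 5 that rose and 0 that fell from D7 to D8, and 8, 12 and 15 that fell for D10 against D8, D28 against D10 and D28 against D7.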
